A study of Mus musculus with 11 samples.

Results

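Aquaporin-4 and the proteins that hold it at the astrocyte endfoot were examined in astrocytes sorted from 4 brain regions of adult mice, the olfactory bulb (OB), the hippocampus (HC), the cortex (CX) and the brainstem (BS). The 8 genes followed were the aquaporins Aqp4 and Aqp9, the dystrophin complex genes Dag1, Dmd, Dtna and Sntb1, and the membrane protein pair Mlc1 and Hepacam, out of 24421 gene entries per sample. RNA was sequenced from 3 OB, 3 HC, 2 CX and 3 BS samples. Every sample came from 16-week-old BAC Aldh1l1-eGFP mice on a C57BL/6 background, in which an Aldh1l1 transgene drives eGFP and eGFP-positive cells are collected by fluorescence-activated cell sorting (FACS). No treatment or further allele is named, both sexes were used, and the region is the only difference the labels give between groups. The collected cells are limited to those in which the transgene was active. The labels do not say whether samples came from separate or pooled animals, so the p-values below measure the spread between samples, which may be partly technical.

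Astrocytes wrap brain capillaries with endfeet, and the membrane facing the vessel is packed with aquaporin-4, the main water channel of the brain. The channel is held there by a chain of proteins. Laminin and agrin in the vessel's basement membrane bind the glycoprotein dystroglycan, dystroglycan binds dystrophin, and dystrophin recruits dystrobrevin and the syntrophins, whose PDZ domain takes up the tail of aquaporin-4. MLC1, the protein affected in megalencephalic leukoencephalopathy with subcortical cysts, and its chaperone HepaCAM, also called GlialCAM, lie in astrocyte membranes at vessels and at contacts between astrocytes, together with potassium and chloride channels that move ions alongside water. Aquaporin-9 belongs to the aquaglyceroporins, which pass glycerol and other small solutes as well as water.

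Values are deposited normalised read counts, that is, reads on a gene over the size factor of that sample. Between 2830746 and 14151670 reads per sample lay on genes, and the worth of 1 read ran from 0.367 to 2.10 between the deepest and the shallowest sample. Sorting identity was checked with 8 astrocyte markers, whose geometric mean lay between 3227 and 8929. The lowest values belonged to BS replicate 1 at 3227, BS replicate 3 at 4739 and HC replicate 1 at 5446. Transcripts of other cells were also present. The summed value of 8 choroid plexus markers was 86.1 to 163 in OB, 72237 to 146270 in HC, 1792 to 5059 in CX and 52170 to 245870 in BS, and the choroid plexus genes Folr1 and Slc4a5 had no read in any OB sample. The sum of 8 oligodendrocyte markers was 9528 to 15830 in OB, 18640 to 39949 in HC, 19162 to 20560 in CX and 52348 to 90100 in BS. Their part in the differences below was not tested. In bulk samples fewer cells of a type and less RNA per cell cannot be told apart.

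All 8 genes passed the filter on low counts. An F-test in limma asked for each of 13875 genes whether log2(value + 1) differed among the 4 regions, with p-values adjusted over all of them. It called 3 of the 8 at an adjusted p under 0.05, namely Dag1, Dtna and Sntb1, against a background of 16.5% of all genes tested. Among the 8, the highest region mean exceeded the lowest by a median of 1.92-fold, compared with 1.78-fold over all genes tested. The spread was widest for Sntb1 at 3.24-fold, followed by Dtna at 2.28-fold, and narrowest for Dag1 at 1.61-fold.

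**Figure D1:**
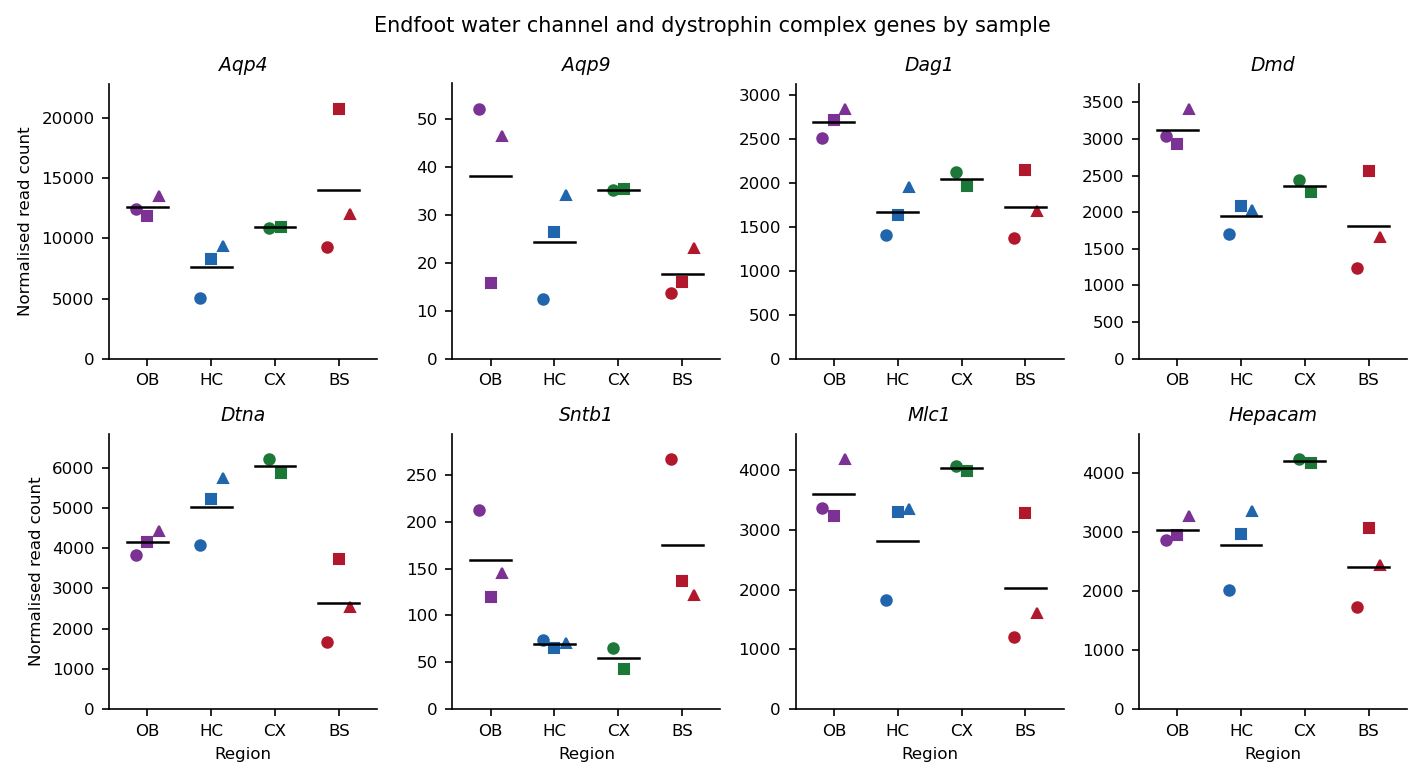
Normalised read counts (vertical axis, linear from 0, one scale per gene) of the 8 endfoot genes in each sample, by region (horizontal axis). Circles, squares and triangles are replicates 1, 2 and 3, and black lines are region means. Dtna lay at 1657 to 3736 in the 3 BS samples and at 3839 to 6216 in the other samples, whereas the Aqp4 values of the BS ran from 9275 to 20767.

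Levels between genes were compared per kilobase of annotated exon. On this scale Aqp4 led with a mean of 1914 per kb, followed by Mlc1 at 1085 and Hepacam at 897. Dtna reached 453, Dag1 341 and Dmd 154 per kb. The length taken for Dmd was the union of its exons, 14957 bases, whereas a shorter annotated transcript has 4438 bases. On a shorter length its level per kb would be higher, so its place in this order depends on the length taken. Sntb1 at 23.0 and Aqp9 at 8.41 per kb lay far below. By its mean value Aqp4 ranked 36 among all gene entries.

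Aqp4 encodes aquaporin-4 and lies on chromosome 18 of GRCm38 from 15389496 to 15410982 on the minus strand. Its normalised read count was 12440, 11807 and 13521 in OB and 5077, 8315 and 9360 in HC. It was 10888 and 10924 in CX and 9275, 20767 and 11980 in BS. The 3 OB samples lay above all HC and CX samples, while the BS samples overlapped those of every other region. Region means were 14007 ± 6008 (SD, n = 3) in BS, 12589 ± 867 (SD, n = 3) in OB, 10906 ± 26.1 (SD, n = 2) in CX and 7584 ± 2234 (SD, n = 3) in HC. The F-test gave an adjusted p of 0.167. No pair of regions passed an adjusted p under 0.05. The BS exceeded the HC by 0.85 ± 0.30 (SE) on the log2 scale at an unadjusted p of 0.0119 and an adjusted p of 0.143, and the OB exceeded the HC by 0.78 ± 0.30 (SE) at an adjusted p of 0.154. Against all other samples the HC was lower by 1.68-fold, with an unadjusted p of 0.0159 and an adjusted p of 0.787.

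Aqp9 on chromosome 9, from 71110659 to 71168682 on the minus strand, was detected in every sample at low levels. Its values were 52.1, 15.8 and 46.3 in OB, 12.5, 26.5 and 34.1 in HC, 35.2 and 35.3 in CX, and 13.7, 16.0 and 23.2 in BS. These values rest on 8 to 93 reads per sample. The OB samples spanned the range of all other regions except for the lowest BS and HC values. Aqp9 did not pass the F-test (adjusted p = 0.537), and its largest log2 difference between regions, CX over BS at 0.99, had an adjusted p of 0.376.

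Other members of the aquaporin family were sparse. Of 10 further aquaporin genes, 2 passed the filter and 1 was called by the F-test, which called 16.5% of all genes tested. This was Aqp1, the water channel of the choroid plexus, with values of 162, 135 and 209 in OB, 177, 89.5 and 234 in HC, 2.51 and 6.13 in CX, and 400, 108 and 198 in BS (adjusted p = 1.33e-05). Both CX samples lay below all others. The choroid plexus markers summed to at most 163 in OB, where the mean of Aqp1 was 169, and to 1792 to 5059 in CX, where it was 4.32, and their part in its values was not tested. Aqp11, an intracellular aquaporin, had region means between 55.2 and 91.5 and an adjusted p of 0.621. Aqp6, singled out after its values were seen, did not pass the filter but reached 8.41, 54.1 and 10.5 in BS, whereas its mean was 0.789 in OB and it had no read in HC or CX.

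Within the dystrophin complex, Dag1 and Dmd were both higher in OB. Dag1, on chromosome 9 from 108204634 to 108263958 on the minus strand, encodes the precursor of alpha- and beta-dystroglycan, the receptor for laminin. Its values were 2512, 2711 and 2844 in OB, 1401, 1637 and 1957 in HC, 2126 and 1961 in CX, and 1373, 2140 and 1677 in BS. Every OB sample exceeded every other sample, of which the highest was 2140. Dag1 was 1.53-fold higher in OB than in the other samples (log2 difference 0.61 ± 0.17 SE, unadjusted p = 0.0031, adjusted p = 0.0602). In pairs of regions the OB was higher than the HC by 1.63-fold (adjusted p = 0.0308) and higher than the BS by 1.58-fold (adjusted p = 0.0261). The CX, the neighbour of the OB in the order of levels, had an adjusted p of 0.384 against it. The F-test call (adjusted p = 0.0444) was lost in 5 of 11 alternative fits and in 8 of the 11 fits that left out 1 sample, where its adjusted p ranged from 0.0080 to 0.167.

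Dmd, on chromosome X from 82948870 to 85206141 on the plus strand, encodes dystrophin, which ties dystroglycan to the cytoskeleton. Its values were 3039, 2927 and 3416 in OB, 1707, 2091 and 2031 in HC, 2446 and 2280 in CX, and 1234, 2556 and 1661 in BS. Again the 3 OB samples lay above all 8 others. Dmd was 1.60-fold higher in OB than in the other samples (log2 difference 0.68 ± 0.21 SE, unadjusted p = 0.0057, adjusted p = 0.0876), and 1.80-fold higher than in BS alone (adjusted p = 0.0166). The OB against the HC gave 1.61-fold with an adjusted p of 0.0786, and the F-test an adjusted p of 0.0515. Across the 11 samples, log2(value + 1) of Dmd and Dag1 had a Pearson correlation of 0.943, given as a description since the points share libraries and regions.

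Dmd is annotated with a transcript of 79 exons and 14910 bases and with shorter ones of 18 exons and 4438 bases and of 17 exons that start far downstream in the gene. Glia are known to use a short dystrophin product. The deposited value is one number per gene and does not separate the transcripts. As Dag1 and Dmd were both higher in OB, the 250 bases before their starts are shown from RefSeq (GRCm38.p6), with the upstream and the downstream start for Dmd. Capitals mark the GC box GGGCGG, the NFI half-site TTGGC and the AP-1 site TGANTCA on either strand, and overlapping matches run together.
Dag1, chr9:108263959-108264208, minus strand: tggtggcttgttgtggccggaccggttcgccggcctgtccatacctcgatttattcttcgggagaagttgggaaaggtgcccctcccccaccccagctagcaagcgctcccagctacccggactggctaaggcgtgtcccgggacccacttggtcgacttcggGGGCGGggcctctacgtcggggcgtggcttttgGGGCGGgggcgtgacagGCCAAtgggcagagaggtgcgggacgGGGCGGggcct
Dmd, upstream start, chrX:82948620-82948869, plus strand: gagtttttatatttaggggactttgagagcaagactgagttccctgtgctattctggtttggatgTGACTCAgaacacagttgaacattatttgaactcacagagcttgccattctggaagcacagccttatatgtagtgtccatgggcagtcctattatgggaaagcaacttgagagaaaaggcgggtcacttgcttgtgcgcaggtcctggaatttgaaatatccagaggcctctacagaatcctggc
Dmd, downstream start, chrX:85048045-85048294, plus strand: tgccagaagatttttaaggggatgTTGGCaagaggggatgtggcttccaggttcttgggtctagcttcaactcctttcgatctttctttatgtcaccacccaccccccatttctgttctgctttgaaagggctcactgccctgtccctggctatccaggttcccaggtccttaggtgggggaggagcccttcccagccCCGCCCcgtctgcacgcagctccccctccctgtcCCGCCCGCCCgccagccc

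The Dag1 window and the downstream Dmd window each held 3 GC boxes and 1 NFI half-site, with 67.6% and 60% G or C, against a median of 52.4% over 32851 promoter windows of the same length. The upstream Dmd window differed, with 45.2% G or C, no GC box and 1 AP-1 site. A GC box was found in 32.7% of all windows, an NFI half-site in 41.5% and an AP-1 site in 6.75%, and the full NFI palindrome, in none of these 3, in 0.0365%. These matches describe letters only.

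The cytoplasmic members of the complex had other patterns. Dtna, which encodes alpha-dystrobrevin and lies on chromosome 18 from 23415135 to 23659715 on the plus strand, was lower in BS. Its values were 3839, 4158 and 4422 in OB, 4076, 5214 and 5747 in HC, 6216 and 5859 in CX, and 1657, 3736 and 2538 in BS. All BS samples lay below all others, although BS replicate 2 at 3736 came close to OB replicate 1 at 3839. Dtna was 1.94-fold lower in BS than in the other samples (log2 difference -0.96 ± 0.23 SE, adjusted p = 0.0288). The CX exceeded the BS by 2.41-fold (adjusted p = 0.0076) and the HC exceeded it by 1.98-fold (adjusted p = 0.0322). The OB, next to the BS in the order, had an adjusted p of 0.0633 against it. The F-test gave an adjusted p of 0.0144. Without BS replicate 1, the library with the lowest astrocyte markers, the log2 difference was -0.66 and was no longer called.

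Sntb1, on chromosome 15 from 55636388 to 55906949 on the minus strand, encodes beta-1-syntrophin, an adaptor bound to dystrophin and dystrobrevin. Its regional order was not that of Dtna, with values of 213, 120 and 145 in OB, 73.7, 64.9 and 70.8 in HC, 65.3 and 42.9 in CX, and 267, 136 and 122 in BS. The 6 OB and BS samples all exceeded the 5 HC and CX samples. Sntb1 was higher in BS than in CX by 3.06-fold (adjusted p = 0.0116) and higher in OB than in CX by 2.89-fold (adjusted p = 0.0272). The BS against the HC gave 2.34-fold at an adjusted p of 0.0501 and the OB against the HC gave 2.21-fold at 0.0535. Its F-test (adjusted p = 0.0082) kept its call in each fit that left out 1 sample, with adjusted p from 0.0079 to 0.0354. The highest value, in BS replicate 1, came from the library in which the fibroblast markers summed to 2716, compared with 89.2 to 533 in the others, and their part in it was not tested. The Pearson correlation of Sntb1 with Dtna over the 11 samples was -0.79.

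Further parts of the dystrophin complex were followed as a list of 13 genes, of which 10 passed the filter and 3 were called by the F-test. Over all genes tested 16.5% were called. Sgcb, which encodes beta-sarcoglycan, was lower in BS, where values of 314, 339 and 362 lay below all other samples, at 437 to 1202 (log2 difference -1.37 ± 0.25 SE, adjusted p = 0.0058). Sgcd, which encodes delta-sarcoglycan, was higher in OB. It had values of 204, 82.9 and 145 there and at most 12.6 in the other samples (adjusted p = 0.0031). Sntb2, which encodes beta-2-syntrophin, differed among regions (adjusted p = 0.0089), with means of 295 in BS, 214 in HC, 111 in OB and 75.7 in CX. The most abundant gene of the list was Utrn, encoding the dystrophin relative utrophin, with means between 1339 in OB and 1893 in BS and an adjusted p of 0.425. Sgca and Sgcz, which encode further sarcoglycans, were among the 3 that did not pass the filter.

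On the outer side, 4 of 10 genes for dystroglycan's ligands were called by the F-test, against 16.5% of all genes tested. The laminin chain gene Lamc1 was higher in OB (log2 difference 0.74 ± 0.18 SE, adjusted p = 0.0301), with 419 to 576 there and 262 to 432 elsewhere. Lama4, encoding a laminin chain of vessels, had means of 153 in OB, 54.8 in BS, 40.5 in HC and 18.6 in CX (F-test adjusted p = 0.0130). Lamb1 was higher in BS, at 546, 130 and 202, than in the other samples, at 24.5 to 150 (log2 difference 2.18 ± 0.59 SE, adjusted p = 0.0473), and its lowest BS value overlapped the HC and its highest came from BS replicate 1, the library with the highest fibroblast markers. Egflam, encoding pikachurin, passed narrowly (adjusted p = 0.0498) with means of 1.53 in CX to 31.3 in OB. The most abundant ligand gene, Lama2, had means of 564 in BS to 864 in OB at an adjusted p of 0.165. Endothelial markers summed to 379 to 1619 in OB and 379 to 3466 over all samples, and mural markers to 766 to 1489 in OB and 515 to 2738 over all.

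Of 17 genes for the enzymes that build the laminin-binding sugar of dystroglycan, 1 was called by the F-test, Pomgnt1, with means of 165 in BS, 165 in HC, 93.0 in CX and 88.1 in OB (adjusted p = 0.0464). This was 5.88% of them, against 16.5% over all genes tested, and with 1 call among 17 genes no difference from that share is read. The Pomgnt1 call was lost in some alternative fits, among them those with no filter and without the variance trend. It was also lost without any single OB or HC sample and without BS replicate 1 or 2, and kept without BS replicate 3. Pomt2, among the most abundant of them, had an adjusted p of 0.293.

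Mlc1 and Hepacam had their highest means in CX. Mlc1, on chromosome 15 from 88955884 to 88979007 on the minus strand, had values of 3363, 3241 and 4191 in OB, 1826, 3298 and 3346 in HC, 4079 and 3980 in CX, and 1203, 3282 and 1606 in BS. Its BS replicates 1 and 3 were the lowest of all samples, whereas BS replicate 2 lay among the HC and OB values. The CX exceeded the BS by 2.18-fold at an adjusted p of 0.0510 and the OB exceeded it by 1.93-fold at 0.0524. Neither pair passed, and the F-test gave an adjusted p of 0.0868. Against all other samples the BS was lower by 1.80-fold at an unadjusted p of 0.0107, just short of the rule used for regions.

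Hepacam, on chromosome 9 from 37367351 to 37386575 on the plus strand, had values of 2859, 2953 and 3266 in OB, 2011, 2960 and 3352 in HC, 4236 and 4158 in CX, and 1728, 3073 and 2433 in BS. Both CX samples exceeded the other 9, which reached at most 3352. The CX was higher than the BS by 1.79-fold (adjusted p = 0.0446). This call was lost in 5 of 11 alternative fits, edgeR among them, and in 8 of the 11 fits that left out 1 sample. Its log2 difference of 0.84 became -0.06 relative to 8 astrocyte markers and 0.08 relative to 6, scales on which the CX minus BS difference had a median of -0.91 and -0.77 over all genes. That of the CX against all other samples went from 0.65 to 0.0056 relative to 6 markers. On the deposited scale, against the OB, next in order, the adjusted p was 0.387. The F-test gave an adjusted p of 0.125, and the CX against all other samples gave 1.57-fold at an unadjusted p of 0.0187 and an adjusted p of 0.393. Mlc1 and Hepacam had a Pearson correlation of 0.911 with each other over the 11 samples. Their correlations with Dtna were 0.862 and 0.840.

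Of 10 channel and transporter genes of the endfoot and of the partners of MLC1, 4 were called by the F-test (16.5% over all genes tested). Kcnj10, encoding the inward rectifier Kir4.1 that takes up potassium beside aquaporin-4, had values of 32855, 26678 and 34049 in OB, 7653, 11324 and 12008 in HC, 15428 and 16110 in CX, and 16722, 41742 and 18939 in BS (adjusted p = 0.0131). Every HC sample lay below every other sample. By the rule used for regions, given with the region counts, Kcnj10 was called lower in HC (log2 difference -1.22 ± 0.36 SE, unadjusted p = 0.0049), although its adjusted p was 0.653. Clcn2, encoding the chloride channel ClC-2 that GlialCAM binds, was higher in OB, at 190 to 314, than in the other samples, at 40.0 to 121 (log2 difference 1.68 ± 0.32 SE, adjusted p = 0.0067). It was also called lower in BS (log2 difference -1.41 ± 0.40 SE, unadjusted p = 0.0033).

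Cav1, encoding caveolin-1, was higher in OB as well, with 260 to 450 against 58.1 to 237 elsewhere (log2 difference 1.59 ± 0.38 SE, adjusted p = 0.0284). Trpv4, encoding a cation channel that opens on osmotic swelling, was lower in OB, where 2.17, 0 and 1.08 correspond to at most 2 reads per sample (adjusted p = 0.0061). Its highest values, 259 in BS replicate 1 and 169 in HC replicate 1, came from the libraries with the highest sums of choroid plexus markers, 245870 and 146270, and that part of the result was not tested. Slc4a4, encoding a sodium bicarbonate cotransporter and among the most abundant of the list, had an adjusted p of 0.497.

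**Figure D2:**
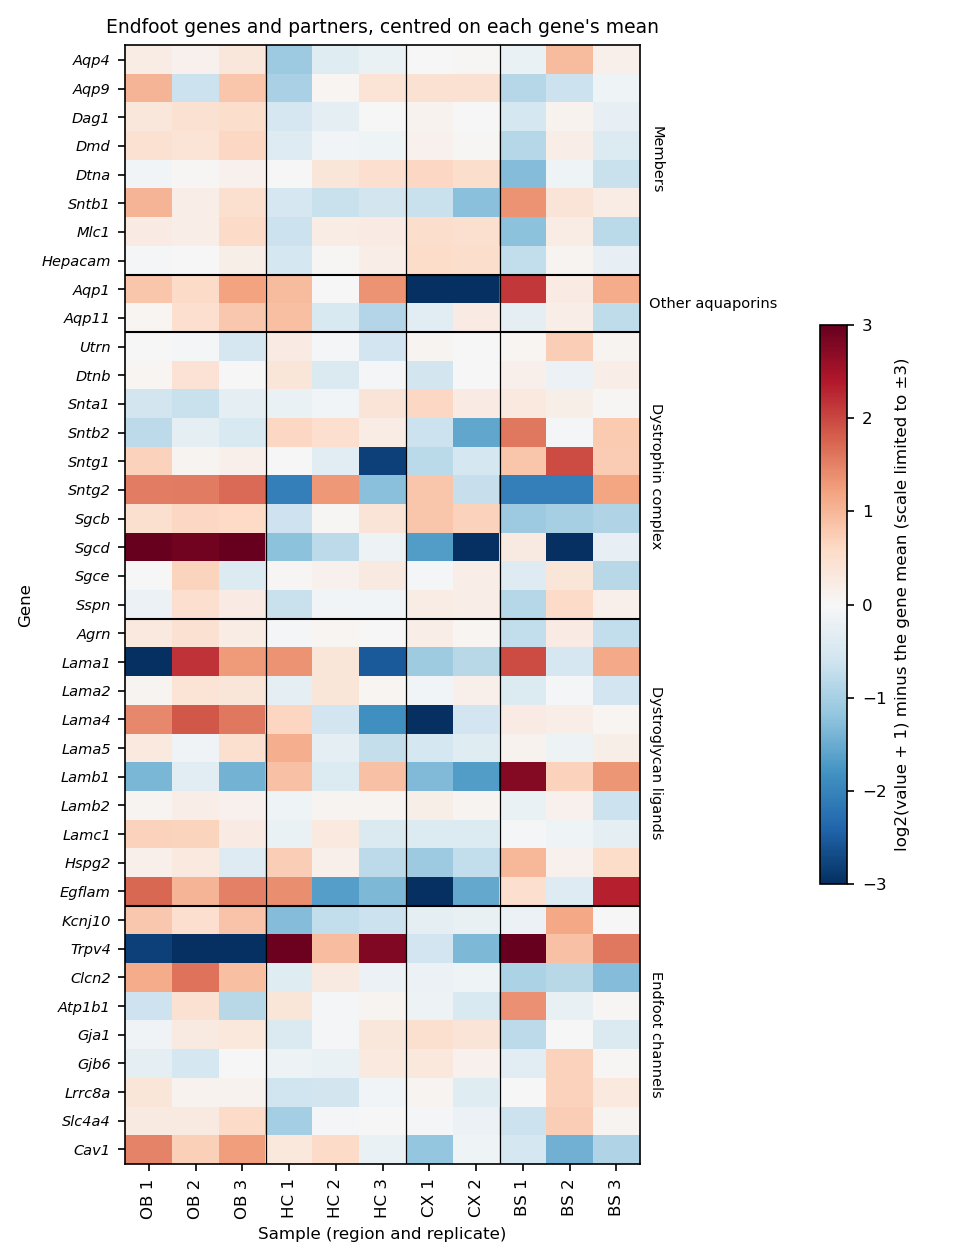
Colour gives log2(value + 1) minus the mean of that gene over the 11 samples (red above, blue below, scale limited to ±3) for the 8 genes and genes of 4 related lists (rows) in each sample (columns). Sgcd is high in the 3 OB samples and Aqp1 low in the 2 CX samples, while the rows of Aqp4, Dag1 and Dmd vary by much less.

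Each region was then compared with all remaining samples by a rule after that of the study. The study set its threshold on values in RPM, whereas here it was applied to the deposited values, which are on another scale. The rule asks for p under 0.01, taken here as unadjusted, for more than a 1.5-fold change and for values above 5 in 2 or more replicates of 1 region, and genes called in more than 1 region were kept. In the OB it called 2 of the 8 genes, both higher (Dag1 and Dmd), against 8.04% of all genes tested, and without OB replicate 2, OB replicate 3 or BS replicate 1 it called 0, and 1 without OB replicate 1, HC replicate 1 or BS replicate 3. In the BS it called 1 of 8, lower (Dtna), against 9.03%. This became 0 without BS replicate 1, 2 without HC replicate 1 (Mlc1 added) and 3 without BS replicate 2 (Dmd and Mlc1 added). In the HC limma called 0 of 8 against 1.28%, with 1 gene, Aqp4, at an unadjusted p under 0.05, and edgeR called 0 and DESeq2 1, which was Aqp4. Without BS replicate 1 limma too called Aqp4 lower in HC. Without HC replicate 1, which had the lowest Aqp4 value, none of the 8 had an unadjusted p under 0.05 in the HC. The same held without HC replicate 1 and BS replicate 1 together. Over the fits that left out 1 sample, the log2 difference of Aqp4 in the HC ranged from -0.93 to -0.49. In the CX limma called 0 of 8 against 2.77%, with Sntb1 and Hepacam at an unadjusted p under 0.05, and edgeR and DESeq2 also called 0.

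In the 6 pairs of regions, 8 differences of a gene in a pair passed an adjusted p under 0.05. Of the 8 genes, 1 was called between OB and HC (7.11% of all genes tested), 1 between OB and CX (4.91%), 2 between OB and BS (15%), 1 between HC and BS (4.63%) and 3 between CX and BS (10.9%). Sntb1 between CX and BS was lost in 1 of 11 alternative fits and 1 of 11 fits without 1 sample, and Dtna between CX and BS in 2 and 2. Sntb1 between OB and CX was lost in 2 and 4, Dmd between OB and BS in 2 and 3, Dag1 between OB and HC in 2 and 7 and between OB and BS in 4 and 5, and Dtna between HC and BS in 4 and 9. Between HC and CX limma called 0 (1.23%), with 1 gene at an unadjusted p under 0.05, and edgeR and DESeq2 called 0 as well. The median log2 difference of the 8 genes was 0.50 in OB and -0.25 in HC, where the median over all genes was 0.02 in both. It was 0.33 in CX and -0.46 in BS, where the medians over all genes were -0.03 and 0.02. The 8 astrocyte markers had similar medians there, 0.53 in CX and -0.45 in BS, with 0.05 in OB and 0.07 in HC. The shift in CX and BS is thus not particular to the endfoot genes. Relative to 8 astrocyte markers, a scale that moves all genes of a sample alike, the 8 genes had -0.15 in CX and 0.23 in BS, against -0.50 and 0.68 over all genes. Relative to 6 of the markers they had -0.30 and -0.13, against -0.65 and 0.33. The median of the 8 genes lay above that of all genes in CX and below it in BS. As the marker scales move all genes of a sample alike, they could hardly change this and are no separate test of it.

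Because the astrocyte markers themselves varied between samples, each gene was also expressed as a ratio to the geometric mean of the 8 markers in the same sample. This scale moved the median gene by -0.43 to 1.04 on the log2 scale, most in BS replicate 1, so that over all genes the BS exceeded the HC by a median of 0.62, the CX by 0.91 and the OB by 0.57. On it the Aqp4 ratios were 1.82, 1.71 and 1.76 in OB, 0.93, 1.03 and 1.11 in HC, 1.22 and 1.28 in CX, and 2.87, 3.07 and 2.53 in BS. The 4 regions no longer overlapped, and the order was BS, OB, CX and HC. The F-test on this scale gave Aqp4 an adjusted p of 6.66e-06. The BS exceeded the HC by 1.47 on the log2 scale (adjusted p = 2.34e-06), the CX by 1.17 (adjusted p = 7.66e-05) and the OB by 0.67 (adjusted p = 0.0022). The OB exceeded the HC by 0.79 (adjusted p = 0.0013), where the median over all genes was 0.01, whereas the OB against the CX had an adjusted p of 0.0773 and the HC against the CX 0.624.

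On the same scale 4 of the 8 genes passed the F-test, Aqp4, Dag1, Dmd and Sntb1, against 17.7% of all genes tested. The Dag1 ratio was 0.37 to 0.39 in OB and 0.32 to 0.43 in BS, above 0.20 to 0.26 in HC and 0.23 to 0.24 in CX (adjusted p = 0.0123). Dmd followed with 0.42 to 0.45 in OB and 0.35 to 0.38 in BS, against 0.24 to 0.31 in HC and 0.27 in both CX samples (adjusted p = 0.0164). For Dag1 and Dmd the log2 difference of CX minus BS was -0.63 and -0.45, against a median of -0.91 over all genes. That of HC minus BS was -0.66 and -0.46, against -0.62. Their higher ratios in BS thus did not exceed the shift of all genes beyond a small margin. The OB minus HC difference was 0.72 and 0.70, against 0.01. Dtna was no longer called (adjusted p = 0.144), with 0.51 to 0.55 in BS and 0.56 to 0.75 in the other samples. Its log2 difference of the BS against the other samples was -0.28 on this scale, against a median of 0.68 over all genes. On the deposited scale these were -0.96 and 0.02, so the lost call does not show Dtna nearer to other genes. In the BS against the other samples the region rule called Aqp4 and Sntb1, both higher, while on this scale it called 19.2% of all genes tested higher in BS. Dtna was not called there. In HC it called Aqp4 lower, against 0.959% of all genes tested.

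The markers were not neutral. Gfap and Slc1a3 differed among regions by the F-test, Slc1a3 with a mean of 4470 in BS and 20962 to 32563 elsewhere. With these 2 left out, a choice made after seeing the data, 6 of the 8 genes passed the F-test against 12.5% of all genes, Dtna and Mlc1 in addition. Aqp4 then had mean ratios of 2.25 ± 0.167 (SD, n = 3) in BS, 1.93 ± 0.0628 (SD, n = 3) in OB, 1.098 ± 0.0888 (SD, n = 2) in CX and 1.08 ± 0.0573 (SD, n = 3) in HC. The F-test gave it an adjusted p of 4.06e-05. The OB and BS both exceeded the HC and CX, and the OB against the BS had an adjusted p of 0.385. In log2, OB minus HC was 0.84 and HC minus BS -1.05, against medians of 0.06 and -0.21 over all genes. OB minus CX was 0.82 and CX minus BS -1.04, against 0.61 and -0.77, so that much of the excess over the CX was shared by all genes. Relative to each marker singly, the order BS, OB, CX and HC without overlap was found for 0 of the 8 markers, and the 6-marker scale did not give it either. All BS samples lay above all HC and CX samples for 6 of the 8 markers, and all OB samples did so for 6, the exceptions being Gfap and S100b. All OB and BS samples lay above all HC samples for 7 of the 8, S100b being the exception. For Kcnj10 these counts were 6, 7 and 7 of 8. Such counts were not made over all genes, so they do not set Aqp4 or Kcnj10 apart from other genes. The markers themselves had a median log2 difference of 0.53 in CX and -0.45 in BS, which by itself raises a ratio to them in BS against CX.

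**Figure D3:**
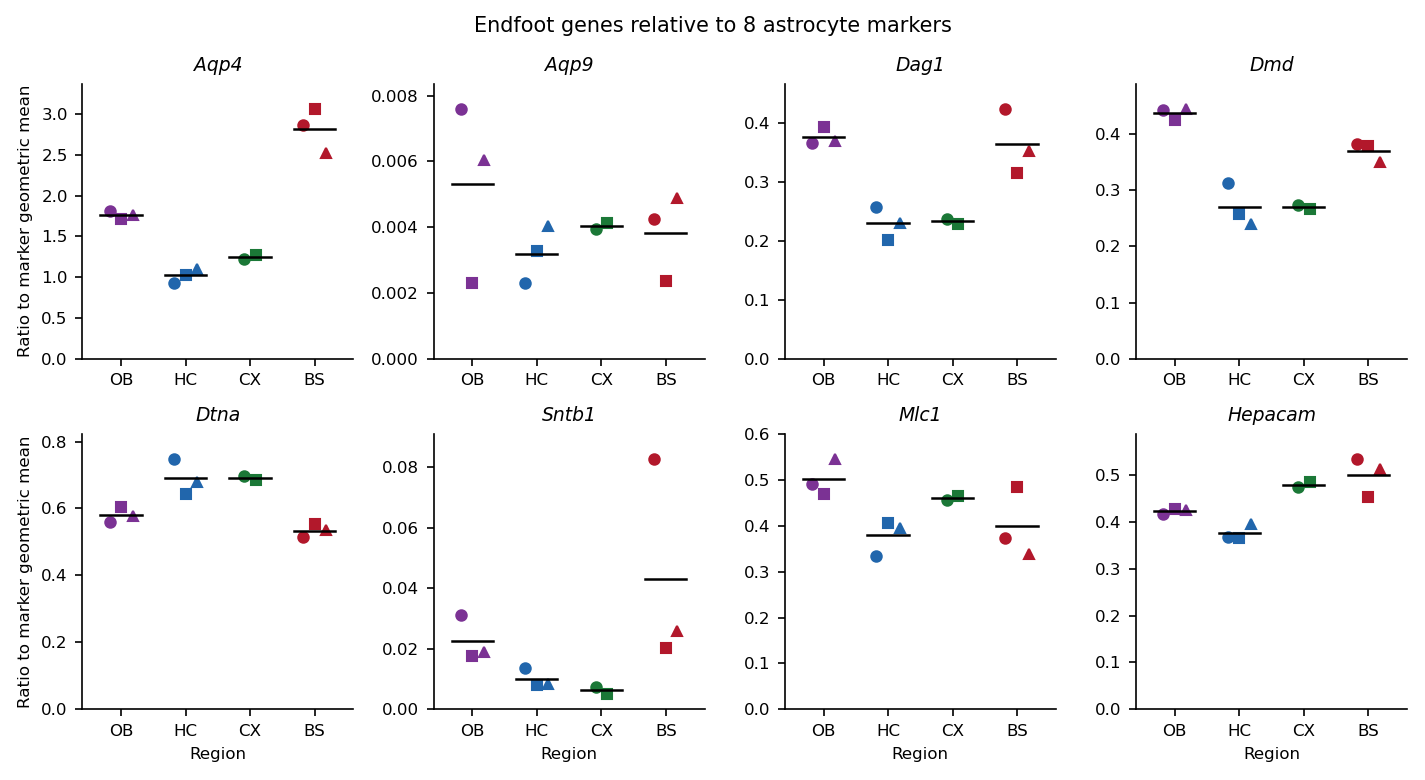
Ratio of each of the 8 genes to the geometric mean of 8 astrocyte markers in the same sample (vertical axis, no unit, linear from 0, one scale per gene), by region (horizontal axis). Circles, squares and triangles are replicates 1, 2 and 3, and black lines are region means. Aqp4 lies at 2.53 to 3.07 in BS and at 0.93 to 1.11 in HC with no overlap between regions, and Dag1 and Dmd are higher in OB and BS than in HC and CX. Over all genes this scale put the BS above the HC by a median of 0.62 and above the CX by 0.91 (log2).

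A ratio to Aqp4 in the same sample needs no outside scale. Per 1000 of the Aqp4 value, Dtna was 614 to 803 in HC, 536 to 571 in CX, 309 to 352 in OB and 179 to 212 in BS, with no overlap between regions. Mlc1 was 130 to 158 in BS, 270 to 310 in OB, 357 to 397 in HC and 364 to 375 in CX. Hepacam was 148 to 203 in BS, 230 to 250 in OB, 356 to 396 in HC and 381 to 389 in CX. For both genes BS lay lowest and OB next, while HC and CX overlapped. Dag1 and Dmd lay lowest in BS, at 103 to 148 and 123 to 139, with 180 to 276 and 209 to 336 in the other regions. Sntb1, at 6.56 to 28.8 in BS and 3.93 to 17.1 elsewhere, overlapped. These ratios are given as a description without a test, and they show unequal levels of the partners rather than which gene moved. Aqp4 itself was 0.85 higher in BS than in HC on the deposited log2 scale, where the median over all genes was 0.01. Dividing by it lowers all genes alike in BS against HC. On the deposited scale the HC was 0.97-fold of the BS for Dag1 and 1.11-fold for Dmd. How many of all genes separate the regions in this ratio was not computed.

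The genes whose log2(value + 1) was most like that of Aqp4 over the 11 samples were Enho with a Pearson r of 0.947, Mboat2 with 0.946, Tmc7 with 0.945, Phyhipl with 0.942 and Gm2a with 0.936. Enho encodes the peptide adropin and Gm2a the GM2 ganglioside activator. Their Spearman coefficients lay between 0.718 and 0.973. Among the genes closest to Dag1 was the endothelin receptor gene Ednrb with an r of 0.981. For Dmd they were the focal adhesion kinase gene Ptk2 with 0.982 and Dlg5 with 0.979. Dtna was nearest to the transcription factor gene Pou3f3 with 0.988 and to Sirpa with 0.985. Mlc1 lay nearest to the BMP receptor gene Bmpr2 with 0.986 and to Clcn3 with 0.982, Hepacam to Spag9 with 0.983 and to Gnaq with 0.970. The nearest genes of Sntb1 were Tgds with 0.910 and Fnbp1l with 0.909, and those of Aqp9 were Arhgef10l with 0.937 and Srm with 0.921. All points share 11 libraries, so that depth and the makeup of each library enter every coefficient.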

How the data were processed

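Per the labels, eGFP-positive cells were sorted into lysis buffer and libraries were made from 5 ng of total RNA with the Trio RNA-Seq System. The authors mapped reads to mm10 with STAR 2.5.0a, counted them on UCSC transcripts and normalised the counts with DESeq2 1.20.0. The strand setting is not given in the sources used here. The deposited unit is a normalised signal, reads on a gene over the size factor of that sample, which the paper calls RPM. All non-zero values (100%) were multiples of a sample's smallest step within a tolerance of 0.01, so that reads were recovered. Their number per sample was 2830746 to 14151670, with a median of 5552215, and a floor of 3 reads corresponded to values of 1.10 to 6.31 (counting error only).

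Since the files hold normalised values, the main test was two-sided limma 3.58.1 (R 4.3.3) with a trend of variance on mean, fitted to log2(value + 1), with 13875 genes kept by filterByExpr on recovered reads, and a fold change on this scale understates that of low genes. Adjusted p-values follow Benjamini and Hochberg over all genes tested. Samples were grouped by the region in their titles, and no 2 replicates were alike within sampling noise. The 8 genes and 14 gene lists were chosen with earlier results of these data known. From each list the text names genes with an adjusted F-test p under 0.05 (at most 6) and the 2 of highest mean, and, for likeness, the 5 genes closest to Aqp4 and 2 for each other gene. Marker lists were astrocyte (2 of 8 called by the F-test), endothelial (0 of 8 in limma, edgeR and DESeq2, with 1 at an unadjusted p under 0.05 in limma), mural (1 of 8), fibroblast (2 of 5), oligodendrocyte (7 of 8), neuronal (5 of 8), microglial (1 of 8), choroid plexus (8 of 8) and ependymal (4 of 6 tested). The same F-test in limma called 16.5% of all genes tested.

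Alternatives were edgeR 4.0.16 with TMM and DESeq2 1.42.0 on recovered reads, pseudocounts of 0.25 and 5, no filter, no trend, TMM or astrocyte marker scaling, a mean for each region (region means weighted alike), adjusted p-values alone, a replicate block, and each sample left out in turn. Scaling on 6 markers and leaving out HC replicate 1 with BS replicate 1 were chosen after seeing the data. Python 3.11.15 with pandas 2.3.3 and matplotlib 3.10.9 made the tables and plots. Coordinates and exon lengths come from GENCODE on GRCm38, and promoter sequences from RefSeq (GRCm38.p6). Promoters of the other 6 genes are not shown. Some genes that the rule names are not reported here.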

Additional observations from a re-analysis of the deposited data

How the results depend on the processing

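Aqp9 among regions stayed above the threshold and Sntb1 below it under every alternative and every left-out sample. The number of the 8 genes differing among regions (3) became 1 without the trend, 6 on the 6-marker scale (added after seeing the data) and 5 with the replicate block. Over all 13875 genes tested, 1552, 1731 and 2327 passed in these fits, against 2285 in the main fit. It was 2 of the 8 with no filter, TMM scaling, edgeR and both low libraries left out. With a pseudocount of 5, DESeq2 and 8-marker scaling it was 4, where DESeq2 passed 3062 of all genes. For the OB (2) the number called by the region rule became 1 without the trend and 3 with region means weighted alike (Sntb1 added). It became 0 with 8-marker scaling, with adjusted p-values alone, and without HC replicate 1 and BS replicate 1 together (added after seeing the data). For the HC (0) it became 1 with 8-marker scaling, DESeq2 and region means weighted alike, and for the CX (0) 1 on the 6-marker scale and 3 with region means weighted alike. For the BS (1) it became 2 with TMM scaling, with 8- or 6-marker scaling and with the replicate block, and 3 with region means weighted alike. The 8 differences between pairs became 2 without the trend, 14 on the 6-marker scale, 13 with DESeq2 and 13 with the replicate block. Smaller changes of this count under other alternatives are not listed. The replicate numbers share no stated animal, batch or day, and of 15 same-numbered pairs of samples 3 had a correlation of their deviations above 0.1 (range -0.16 to 0.25), so the block stands for a shared number only. The median of the 8 genes in the CX changed sign to -0.15 and -0.30 on the 8- and 6-marker scales, and that in the BS to 0.23 on the 8-marker scale, but these scales moved the median of all genes to -0.50 and -0.65 (CX) and to 0.68 (BS). With each sample left out, the counts ranged from 1 to 6 among regions and 2 to 17 for pairs, and those of the region rule were OB 0 to 2, HC 0 to 1, CX 0 to 0 and BS 0 to 3. The 6 and the 17 arose without BS replicate 2, and the count among regions was 1 without CX replicate 1 or BS replicate 3. Leaving out a CX sample left 1, assumed to vary like the other groups. The cause of these changes was not tested.

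Over all genes, the region rule called 178 in the HC, 419 with DESeq2 and 666 with region means weighted alike, and 384 in the CX, 591 with DESeq2, 838 on the 6-marker scale and 1071 with region means weighted alike. In the BS it called 1253, of which 552 were higher, against 2878, of which 2666 were higher, on the 8-marker scale, and 1960 with region means weighted alike. In the OB it called 1116 against 700 on the 8-marker scale. Aqp9, at 8 to 93 reads per sample, is the gene most limited by depth.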
